A study of Mus musculus with 32 samples.

Results

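Platelets carry RNA that they inherit from megakaryocytes, so the transcripts of a small set of genes mark platelets and their parent cells in a tissue. The 9 genes described here were taken by symbol as a list of such markers, namely Pf4, Ppbp, Itga2b, Gp1bb, Gp9, Gp5, Tubb1, Treml1 and Clec1b, out of 29511 genes in the count table, and all 9 were present in that table and in the FPKM table. They were followed in 32 samples of young adult female FVB/N mice. Control lungs came from 4 WT mice and 4 KO mice without an orthograft, 14-day lungs from 6 WT and 6 KO mice taken 14 days after 6DT1 cells were placed in the mammary fat pad, and 14-day primary tumors from 6 WT and 6 KO hosts. KO mice lack a part of Clic4 in every tissue. Heterozygous mice were intercrossed, and WT and/or KO littermates were taken. The 6DT1 line, which comes from a single mammary tumor driven by Myc under the MMTV promoter, was the same Clic4-carrying line in all hosts. The lungs of tumor-bearing mice are labelled pre-metastatic, and the samples of each group came from separate animals, while whether a 14-day lung and a tumor came from the same mouse is not given in the sources used here.

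Megakaryocytes mature in the bone marrow and, in mice, also in the lung, where they shed platelets into the circulation. Platelets adhere to exposed vessel walls through the glycoprotein Ib-IX-V complex, bind fibrinogen through the integrin alphaIIb beta3, and release chemokines and clotting proteins from their alpha granules. They are known to coat circulating tumor cells and to exchange signals with neutrophils, and Clec1b on platelets binds podoplanin (Pdpn) on lymphatic, alveolar type I and some tumor cells. Pf4 and Ppbp encode 2 alpha-granule chemokines, Itga2b the alphaIIb chain, Gp1bb, Gp9 and Gp5 subunits of the von Willebrand factor receptor, Tubb1 the beta-tubulin of the platelet rim, Treml1 a receptor stored in alpha granules, and Clec1b the podoplanin receptor CLEC-2.

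Promoters of megakaryocyte genes are known for binding sites of GATA1, ETS factors such as Fli1, and NF-E2. The RefSeq promoter windows (GRCm38.p6, 250 bases before to 50 after the annotated start, on the gene's own strand, 300 bases each) of 4 of the genes are printed because they include the pair of chemokine neighbours, the integrin gene and the gene with the most GATA matches. Capitals mark matches, on either strand, to a motif known for GATA factors (AGATAA), one for ETS factors (AGGAAG) and one for NF-E2 (TGANTCA), and no marked matches overlap each other. The windows lie at chr5:90772185-90772484 for Pf4, chr5:90768268-90768567 for Ppbp, chr11:102469834-102470133 (minus strand) for Itga2b and chr16:30310732-30311031 (minus strand) for Gp5.
Pf4: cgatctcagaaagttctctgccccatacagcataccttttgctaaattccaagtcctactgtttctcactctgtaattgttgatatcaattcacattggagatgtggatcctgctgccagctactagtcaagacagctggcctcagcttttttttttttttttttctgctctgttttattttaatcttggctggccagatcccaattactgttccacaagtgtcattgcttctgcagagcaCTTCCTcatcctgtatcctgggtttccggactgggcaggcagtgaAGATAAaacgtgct
Ppbp: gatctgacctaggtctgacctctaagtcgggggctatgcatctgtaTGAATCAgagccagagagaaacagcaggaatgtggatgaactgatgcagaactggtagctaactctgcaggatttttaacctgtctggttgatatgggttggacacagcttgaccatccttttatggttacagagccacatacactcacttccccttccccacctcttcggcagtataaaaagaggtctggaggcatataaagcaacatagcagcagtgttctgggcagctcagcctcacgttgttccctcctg
Itga2b: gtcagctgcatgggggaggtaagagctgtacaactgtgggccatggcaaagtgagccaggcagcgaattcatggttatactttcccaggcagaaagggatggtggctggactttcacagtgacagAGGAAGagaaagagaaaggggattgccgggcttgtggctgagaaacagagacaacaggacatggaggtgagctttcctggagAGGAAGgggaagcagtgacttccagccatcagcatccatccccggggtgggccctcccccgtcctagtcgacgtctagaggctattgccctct
Gp5: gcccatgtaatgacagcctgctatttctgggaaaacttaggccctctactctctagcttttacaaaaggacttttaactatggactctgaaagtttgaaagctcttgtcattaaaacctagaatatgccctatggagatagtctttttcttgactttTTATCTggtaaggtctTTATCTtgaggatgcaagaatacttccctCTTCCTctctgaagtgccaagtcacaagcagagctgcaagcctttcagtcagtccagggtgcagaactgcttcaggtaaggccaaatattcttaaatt

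In these windows Pf4 held an ETS match at position −9 from the start and a GATA match at position 37. Ppbp held 1 NF-E2 match, at position −204 from the start, and no match to the other motifs. Itga2b held 2 ETS matches, at positions −125 and −43. Gp5 held 2 GATA matches, at positions −93 and −77, and 1 ETS match at −48. Over the 9 genes, the ETS letters were found in 6 windows against 35.4% of all 32851 promoter windows of this length, the GATA letters in 3 against 11.2%, and the NF-E2 letters in 2 against 7.81%. Such matches describe letters in a window and were not measured as binding here.

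Ppbp and Pf4 are neighbours on chromosome 5 of GRCm38 (GENCODE M21), from 90768518 to 90770063 and from 90772435 to 90773383 on the plus strand, with 2372 bases between them. The other genes are spread over the genome. Tubb1 lies on chromosome 2 (174450695 to 174457882), Gp9 on chromosome 6 (87778072 to 87779768), Clec1b on chromosome 6 (129397297 to 129409335), Itga2b on chromosome 11 (102453297 to 102470122), Gp1bb and Gp5 on chromosome 16 (18620317 to 18622403 and 30307685 to 30310779) and Treml1 on chromosome 17 (48359916 to 48367176). Gp1bb overlaps Sept5 and Gm49601 on the same strand, Itga2b overlaps a small noncoding RNA gene, and Clec1b overlaps Clec9a on the same strand, so the split of shared reads by RSEM makes the counts of Gp1bb and Clec1b less certain.

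Total counts per library ran from 4446323 to 8318711. Clic4 itself was at 55.4 to 74.6 FPKM in the 10 KO lungs and 155 to 230 FPKM in the 10 WT lungs, with no overlap, and at 58.9 to 69.0 FPKM in tumors of KO hosts against 74.7 to 82.2 FPKM in tumors of WT hosts. The lung epithelial genes Sftpc and Scgb1a1 were at 6852 FPKM or more in every lung and at 0.75 FPKM or less in every tumor, and the keratin gene Krt8 was at 164 to 275 FPKM in tumors, as the tissue labels say. The 9 genes drew between 1 and 286 counts each per lung. In such bulk samples, fewer platelets and less RNA per platelet cannot be told apart.

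All 9 genes were detected in all 20 lungs, and the order of their levels, per transcript length, spanned more than an order of magnitude. Pf4 had the highest median over the 20 lungs, 18.3 FPKM (range 10.4 to 32.4), next to Ppbp at 17.4 FPKM (5.81 to 32.3), and these neighbours in the order did not differ beyond their spread. Clec1b followed at 11.7 FPKM (7.04 to 17.9), Tubb1 at 9.38 FPKM (4.83 to 14.6) and Itga2b at 5.08 FPKM (2.93 to 8.68). The receptor subunits were lower, with medians of 3.38 FPKM for Gp9 (1.29 to 5.28), 1.10 FPKM for Gp5 (0.64 to 2.63) and 0.51 FPKM for Gp1bb (0.16 to 1.27). Treml1 had a median of 1.12 FPKM (0.18 to 2.67) from 1 to 17 counts per lung, Gp1bb rested on 2 to 16 counts, Gp9 on 5 to 23 and Gp5 on 7 to 30, so single values of these 4 genes carry a large counting error.

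**Figure D1:**
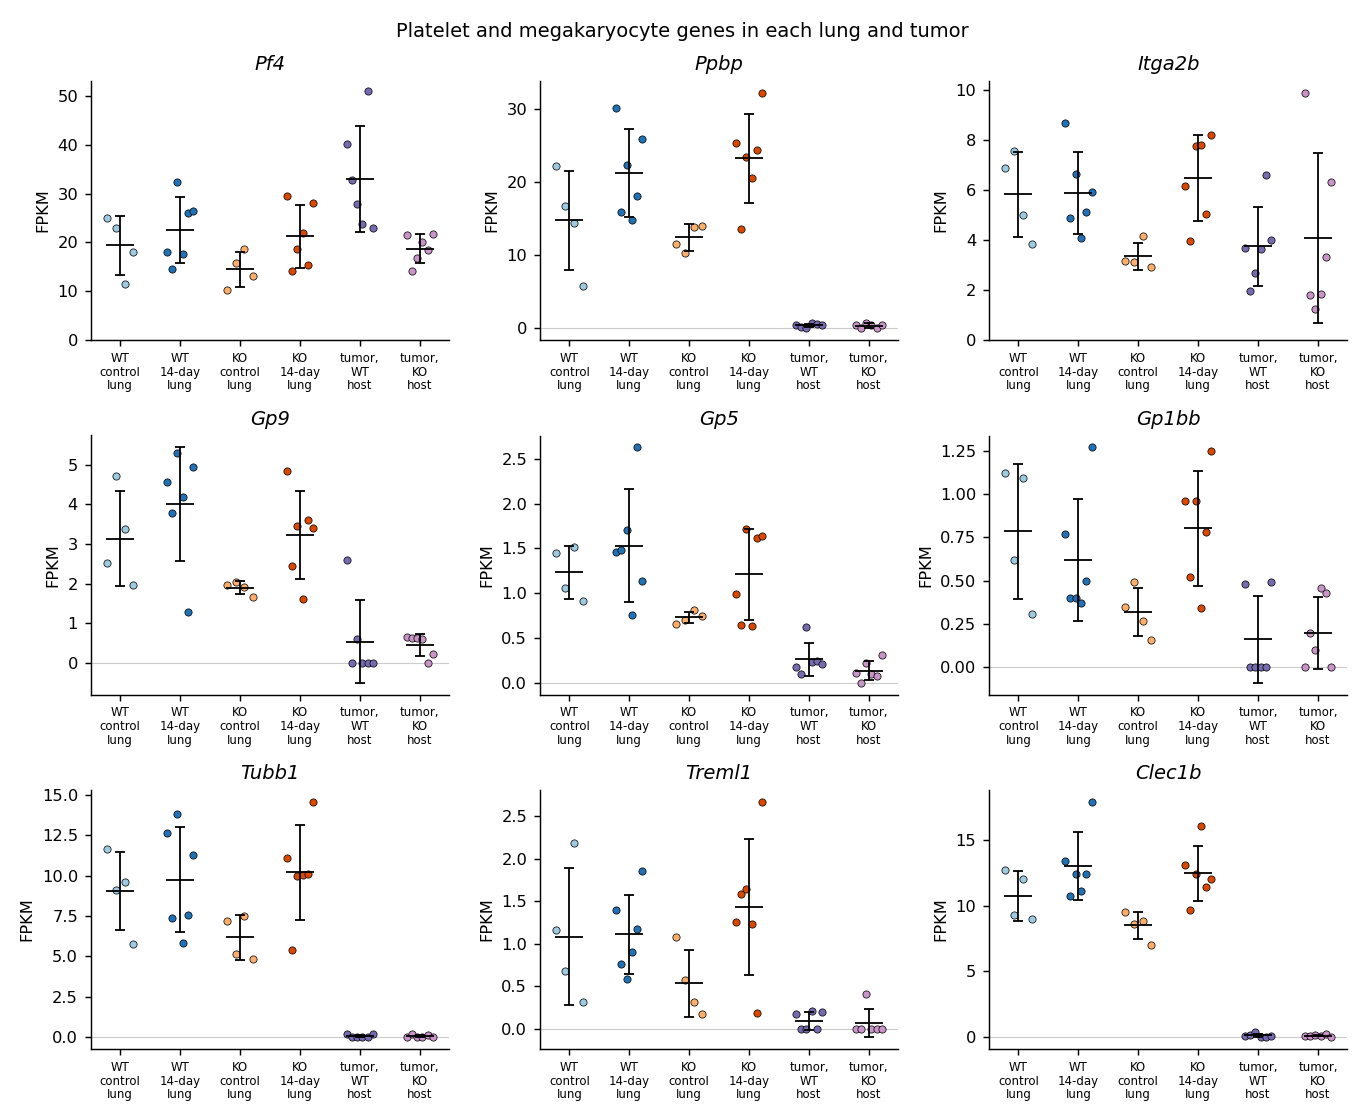
Levels of the 9 platelet and megakaryocyte genes, in FPKM on linear axes, in each of 20 lungs and 12 tumors; points are samples, and the bars are the group mean ± SD (n = 4 control and 6 14-day lungs per genotype, 6 tumors per host genotype). KO control lungs had the lowest group mean FPKM of all lung groups in each panel. On counts scaled by library (CPM) Clec1b was an exception, at a mean of 26.8 in KO and 26.4 in WT controls. In the tumors Pf4 (14.1 to 51.0 FPKM) and Itga2b (1.26 to 9.88 FPKM) were the 2 genes with 10 or more counts in every sample.

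The first question was whether the lungs of tumor-bearing KO mice differed in these genes from KO control lungs. Itga2b rose 1.77-fold and passed the limits of this comparison, an FDR under 0.25 and a 1.5-fold change, in the quasi-likelihood test of edgeR over all genes. It was the 1 gene of 8 tested that did so, against 0.262% of all 16029 genes. The 8 tested genes all had positive log2 fold changes, between 0.36 and 1.17, where 51.0% of all genes had positive values. Levels are given below as TMM-normalized CPM, counts scaled to a library of fixed size, the scale on which samples were compared.

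Itga2b, the integrin chain that pairs with beta3 to bind fibrinogen, was at 8.77, 9.93, 12.1 and 7.39 CPM in the 4 KO control lungs, and from 11.04 to 21.3 CPM (median 17.4) in the 6 KO 14-day lungs. In 5 of 6 tumor-bearing KO mice it lay above all KO controls. The log2 fold change was 0.82 (SE 0.24, edgeR FDR = 0.224, DESeq2 FDR = 0.0642). The call was near the limit, since leaving out any 1 of 8 libraries (KO 14-day replicates 1, 3, 4 and 6 and all 4 KO controls) ended it, with log2 fold changes of 0.72 to 0.97 and FDRs of 0.293 to 0.491. Offsets for the GC content of genes also ended it, at a log2 fold change of 0.73 and an FDR of 0.341.

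Ppbp, the precursor of the neutrophil-attracting chemokine CXCL7, was at 10.1, 8.96, 12.3 and 12.5 CPM in KO control lungs and from 12.2 to 28.5 CPM (median 20.9) in KO 14-day lungs. Again 5 of 6 tumor-bearing KO mice exceeded every KO control. Its log2 fold change of 0.90 (SE 0.28) had an edgeR FDR of 0.271, just outside the limit, and DESeq2 gave an FDR of 0.0892. DESeq2 called 3 genes in KO lungs, of 5 with an adjusted p, namely Itga2b, Ppbp and Tubb1. The share of all genes that DESeq2 called is not given here, for this or any other comparison. Its counts of called genes thus have no background beside them.

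Pf4, a chemokine that binds heparin and is a standard marker of the megakaryocyte lineage, was at 3.92, 4.09, 6.29 and 3.79 CPM in KO controls and from 5.05 to 9.72 CPM (median 6.41) in KO 14-day lungs. The groups overlapped, with 3 of 6 tumor-bearing KO mice above all controls and a log2 fold change of 0.62 (SE 0.23, edgeR FDR = 0.415). Tubb1, which builds the microtubule coil that keeps platelets discoid, was at 8.58, 6.04, 9.04 and 5.88 CPM in KO controls and from 6.55 to 17.6 CPM (median 12.01) at 14 days. For Tubb1, 5 of 6 tumor-bearing KO mice lay above the KO controls, and the log2 fold change was 0.73 (SE 0.27, edgeR FDR = 0.397, DESeq2 FDR = 0.233).

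The 3 subunits of the von Willebrand factor receptor in the list had log2 fold changes of 1.17 (SE 0.44) for Gp1bb, 0.76 (SE 0.37) for Gp9 and 0.74 (SE 0.36) for Gp5 in KO lungs, none past the limits (edgeR FDR 0.412 to 0.578). Gp1ba, the ligand-binding subunit, is outside the list and is given below with a smaller value. Gp9 was tightly grouped in KO controls, at 1.31, 1.36, 1.29 and 1.14 CPM, against 1.09 to 3.37 CPM (median 2.33) in KO 14-day lungs. Gp5 behaved alike in KO controls, at 1.31, 1.36, 1.61 and 1.52 CPM, against 1.27 to 3.44 CPM (median 2.61) at 14 days. In both genes 1 tumor-bearing KO lung lay below all controls.

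Clec1b had the most counts of the 9 genes in lung and a smaller difference. It was at 28.4, 27.7, 27.4 and 23.9 CPM in KO controls and from 27.2 to 49.8 CPM (median 32.7) in KO 14-day lungs, a log2 fold change of 0.36 (SE 0.16, edgeR FDR = 0.532). Treml1 had too few counts to pass the filter on low counts. Without the filter, on 28051 genes, its log2 fold change in KO lungs was 1.45 (SE 0.57, edgeR FDR = 0.621). It was at 1.12, 0.58, 0.32 and 0.19 CPM in KO controls and from 0.20 to 2.80 CPM (median 1.52) at 14 days.

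A count at an unadjusted p shows how the list lay among all genes. Among the genes tested, 7 of 8 were higher in KO 14-day lungs at an unadjusted p under 0.05, against 4.79% of all genes, and Gp5 was the exception. With each of the 10 lungs left out in turn this count ran from 5 to 8. Over the whole table without the filter, all 9 genes were higher at that p, against 3.75% of 28051 genes, with a median log2 fold change of 0.76 beside 0.00 for all genes. None of the 8 tested genes had 14-day KO lungs entirely above the KO controls in CPM, where 1.35% of all genes did. The 9 genes share libraries and cells of origin, so these counts are not 9 separate observations. The list was chosen with earlier results of these data known, and the counts at this p were added after seeing the data. They describe the list and are not a test of it.

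In WT mice the same comparison gave smaller log2 fold changes for 7 of the 8 genes, Clec1b being the exception. None of the 8 tested genes passed the limits, against 0.574% of all genes, and 1 of 8 (Clec1b) was higher at an unadjusted p under 0.05, against 6.00% of all genes. DESeq2 gave 3 of the 8 an adjusted p in WT lungs and called none. The count of 1 at an unadjusted p fell to 0 without WT control replicate 2 or 4 or WT 14-day replicate 6, and rose to 2 without WT control replicate 1 or WT 14-day replicate 2, 4 or 5. Without the filter the count was again 1 of 9 genes against 3.95%, and the median log2 fold change over the 9 was 0.30 beside 0.00 for all genes. The groups overlapped for each of the 8 genes, and 1.63% of all genes had WT 14-day lungs entirely above the WT controls.

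Ppbp was at 19.4, 15.1, 12.6 and 5.02 CPM in WT control lungs and from 12.9 to 27.0 CPM (median 17.8) in WT 14-day lungs, a log2 fold change of 0.51 (SE 0.27, edgeR FDR = 0.468). The fourth WT control lung (replicate 4) was the lowest of its group for 7 of the 9 genes. Without it the log2 fold change of Ppbp in WT lungs was 0.24. Itga2b was at 16.4, 18.4, 13.4 and 9.07 CPM in WT controls and from 11.6 to 26.3 CPM (median 17.3) at 14 days, a log2 fold change of 0.30 (SE 0.22), or 0.13 without that library.

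Clec1b was at 26.2, 23.6, 31.3 and 24.3 CPM in WT controls and from 29.1 to 49.5 CPM (median 32.8) in WT 14-day lungs. Its log2 fold change of 0.40 (SE 0.16, edgeR FDR = 0.331) was close to the 0.36 in KO mice. Tubb1 had a log2 fold change of 0.11 (SE 0.25) in WT lungs, which turned to −0.07 without the fourth WT control. Gp1bb was the 1 gene with a negative value, −0.35 (SE 0.37).

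**Figure D2:**
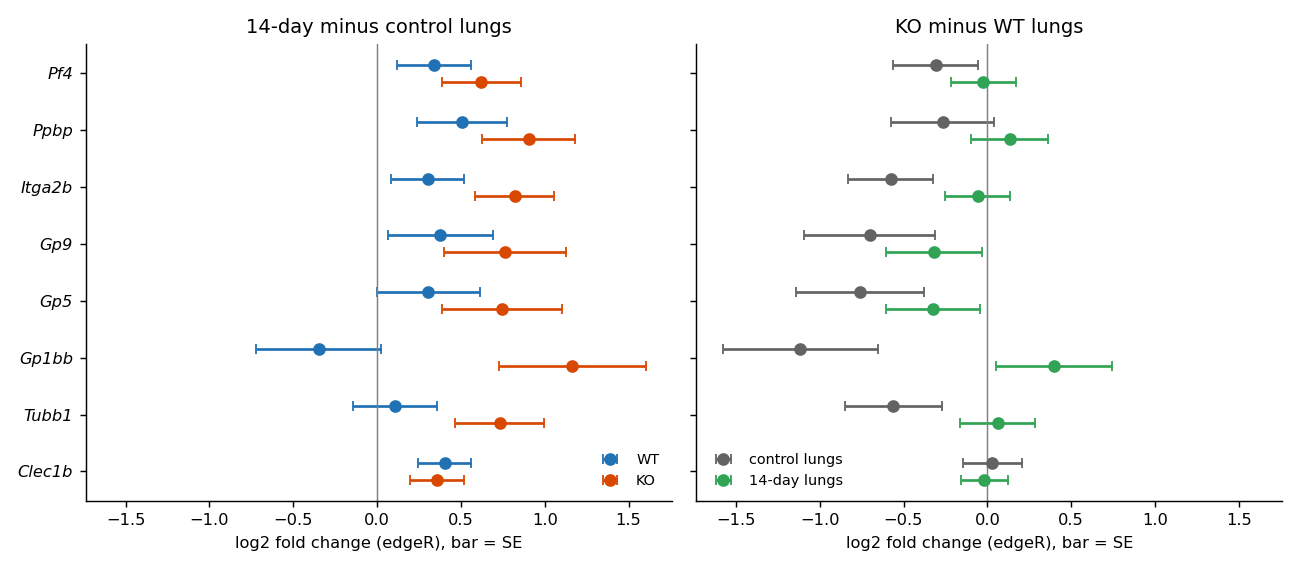
Log2 fold changes of the 8 genes that passed the filter, with bars of 1 SE, for 14-day against control lungs within each genotype (left) and for KO against WT lungs without and with an orthograft (right). All 8 values for KO mice lie right of zero on the left, while 7 of 8 values for control lungs lie left of zero on the right.

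Whether the response differed between genotypes was tested with the interaction of genotype and tumor. No member passed an FDR of 0.25 in that edgeR test, against 0.0499% of all genes, and the smallest FDR among them was 0.484. Gp1bb had the largest interaction, 1.51 on the log2 scale (SE 0.58), and was the 1 gene of 8 with an unadjusted p under 0.05, against 4.78% of all genes with a positive interaction at that p. Without the fourth WT control, 5 of 9 genes had such a p, against 5.15% of the 16168 genes of that fit, namely Gp1bb, Tubb1 (0.80), Itga2b (0.69), Ppbp (0.67, against 0.40 with that lung) and Treml1, which then passed the filter. The count was 0 without WT control replicate 1, WT 14-day replicate 6 or KO 14-day replicate 6, and 2 without KO control replicate 1, KO 14-day replicate 2 or WT 14-day replicate 1 or 3. DESeq2 gave an adjusted p to 1 of the 8 (Clec1b) and did not call it. The values for the other 7 genes ran from −0.05 for Clec1b to 0.62 for Tubb1 (SE 0.36).

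Taking the mean response of both genotypes, Ppbp rose 1.63-fold (log2 0.71, SE 0.19, edgeR FDR = 0.124) and was the 1 gene of 8 past the limits, against 0.574% of all genes. Without the fourth WT control its log2 fold change was 0.57, below the 1.5-fold limit at an FDR of 0.165. Itga2b (0.56, FDR = 0.142), Clec1b (0.38, FDR = 0.151) and Pf4 (0.48, FDR = 0.206) passed the FDR in edgeR but not the fold limit. Dropping the fold limit gave 4 of 8 genes higher, against 2.48% of all genes. At an unadjusted p under 0.05, 7 of 8 were higher, against 6.33%, with Gp1bb as the exception. Without the fourth WT control this count was 4 of 9 (Ppbp, Pf4, Clec1b and Itga2b), against 5.82%.

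KO and WT lungs were then compared at each state. In control lungs no gene of the 8 passed the limits in edgeR, against 0.231% of all genes, nor did any of the 4 with an adjusted p in DESeq2. Of the 8 genes, 7 had lower levels in KO mice, where 49.1% of all genes had positive log2 values. Itga2b (log2 −0.58, SE 0.26) and Gp1bb (log2 −1.12, SE 0.46) were the 2 of 8 genes lower at an unadjusted p under 0.05 in edgeR, against 6.26% of all genes, with FDRs of 0.399 and 0.378. Gp5 was the 1 gene whose groups did not overlap, at 1.31 to 1.61 CPM in KO and 1.78 to 3.02 CPM in WT control lungs, where 3.78% of all genes were lower without overlap. Without the fourth WT control, which was low in most of these genes, the difference for Itga2b widened to −0.75 (edgeR FDR = 0.279), that for Ppbp went from −0.27 to −0.54, and 6 of 9 genes were lower at an unadjusted p under 0.05 (Itga2b, Gp1bb, Gp9, Gp5, Tubb1 and Ppbp), against 6.96% of all genes in that fit. The count of 2 at that p was 0 without KO control replicate 4 or WT control replicate 1, 1 without KO control replicate 2 or WT control replicate 2 or 3, and 0 with GC offsets.

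At 14 days the lungs of the 2 genotypes were close. None of the 8 genes passed the limits in edgeR, against 0.212% of all genes. None had an unadjusted p under 0.05 in edgeR, where 4.35% of all genes were lower in KO mice at that p. DESeq2 gave none of them an adjusted p. The log2 difference was −0.02 for Pf4 (SE 0.19), 0.13 for Ppbp (SE 0.23), −0.06 for Itga2b (SE 0.19), 0.06 for Tubb1 (SE 0.22) and −0.02 for Clec1b (SE 0.14). The widest values were 0.40 for Gp1bb (SE 0.34) and −0.32 for Gp5 (SE 0.28) and Gp9 (SE 0.28). KO control lungs had the lowest mean CPM of the 4 lung groups for 8 of the 9 genes, Clec1b being the exception, and the highest mean was in WT 14-day lungs for 5 genes and in KO 14-day lungs for 4. These comparisons share samples, since KO control lungs enter both the contrast with KO 14-day lungs and that with WT controls.

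The 9 genes were also read together, lung by lung. A platelet score, the mean log2(CPM + 1) of the 9 genes, was 2.91, 2.78, 2.84 and 2.21 in WT control lungs and 2.39, 2.32, 2.45 and 2.18 in KO control lungs. In 14-day lungs it ran from 2.60 to 3.17 (median 2.91) in WT and from 2.52 to 3.25 (median 2.93) in KO mice. All KO 14-day lungs thus lay above all KO controls in the score, while the fourth WT control was as low as the KO controls and the other 3 fell among the WT 14-day lungs. The difference of the means was 0.57 in KO and 0.21 in WT mice, beside pooled SDs of 0.21 and 0.28, and −0.35 in KO against WT controls. Without the fourth WT control the difference in WT mice was 0.052, and that between KO and WT controls −0.51. Across the 20 lungs, the level of Itga2b followed the mean of the other 8 genes with a Pearson r of 0.91, Tubb1 with 0.87 and Ppbp with 0.84, and Clec1b followed it least, with 0.39. With the group means removed, r was 0.83 for Itga2b, 0.84 for Tubb1, 0.83 for Ppbp, 0.77 for Gp1bb and 0.62 for Pf4, but 0.39 for Treml1, 0.35 for Gp9, 0.35 for Gp5 and 0.10 for Clec1b, so that 4 of the 9 genes followed the rest weakly within groups. These correlations describe genes measured in the same libraries.

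**Figure D3:**
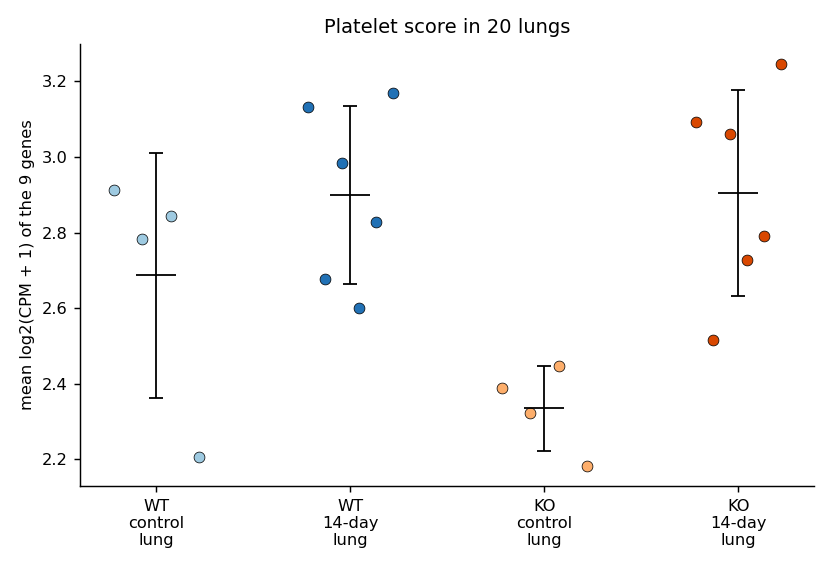
Platelet score, the mean log2(CPM + 1) of the 9 genes, in each of the 20 lungs; points are lungs and bars the group mean ± SD (n = 4 or 6). KO control lungs lie between 2.18 and 2.45, the fourth WT control lies among them at 2.21, and 14-day lungs of both genotypes lie at 2.52 or above.

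Signs of blood content and of other blood cells were measured beside these genes. The summed level of 10 red cell genes in the table (of 12 listed) ran from 3210 to 6376 CPM in WT controls, 3257 to 5573 CPM in WT 14-day lungs, 3249 to 6454 CPM in KO controls and 3506 to 12255 CPM in KO 14-day lungs, and none of the listed genes was at 0 in all lungs. None of its 8 tested genes passed the limits in WT or in KO mice in edgeR or, where it gave an adjusted p, in DESeq2, and none had an unadjusted p under 0.05 in edgeR, with median log2 fold changes of −0.12 in WT and 0.42 in KO mice beside 0.00 for all genes. The highest red cell sum, 12255 CPM, was in KO 14-day replicate 6, which was also the highest of its group for 5 of the 9 genes. Without that lung the log2 fold changes in KO mice were 0.79 for Ppbp, 0.75 for Itga2b and 0.60 for Tubb1, at edgeR FDRs of 0.351, 0.303 and 0.508. The part of blood left in the lung vessels in the platelet values was not tested, and whether the lungs were flushed is not given in the sources used here.

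Neutrophil genes were higher in tumor-bearing mice. In the mean over genotypes 9 of 10 tested genes of a list of 12 passed the limits in edgeR and were higher, against 0.424% of all genes, with a median log2 fold change of 1.41. Within genotypes 4 of 10 passed in WT mice, against 0.331%, and 2 of 10 in KO mice, against 0.212%, while DESeq2 called the same 4 in both genotypes (Cxcr2, Csf3r, S100a8 and S100a9), of 5 with an adjusted p in WT and 7 in KO mice. Their summed level was 70.8 to 127 CPM in WT controls, 93.7 to 143 CPM in KO controls, 128 to 376 CPM in WT 14-day and 97.5 to 441 CPM in KO 14-day lungs. The summed macrophage and endothelial lists spanned 310.0 to 430.4 CPM and 3512 to 3970.4 CPM over all lungs. Genes of B and T cells, 8 of each, were measured as well. The B cell genes summed to 157 to 241 CPM in WT controls, 66.4 to 160.1 CPM in KO controls, 67.9 to 201 CPM in WT 14-day and 89.9 to 283 CPM in KO 14-day lungs, and the T cell genes to 55.1 to 86.8, 45.9 to 71.8, 48.5 to 89.3 and 47.9 to 91.3 CPM in the same order, with no gene of either list at 0 in all lungs. In KO against WT controls, where 7 of 8 platelet genes had negative values, the median log2 difference was −0.73 for the B cell and −0.39 for the T cell genes, and 4 and 2 of 8 were lower at an unadjusted p under 0.05 in edgeR, against 6.26% of all genes. In 14-day against control lungs the medians were 0.41 and 0.24 in KO mice, with 0 of 8 and 2 of 8 genes higher at that p, against 4.79%, and −0.61 and −0.28 in WT mice, with 2 of 8 and 0 of 8 lower, against 5.76%. The median interaction was 0.94 for the B cell genes, with 4 of 8 at that p, and 0.49 for the T cell genes, with 1 of 8, against 4.78%. None of these 16 genes passed the limits in these lung comparisons in edgeR or, where it gave an adjusted p, in DESeq2. The part of these cells in the platelet values was not tested.

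Other genes of the platelet pathway were read from other lists. In 4 of these, with genes for platelet receptors, granule contents, signalling proteins and transcription factors, 52 genes in all and 44 of them tested, 2 genes rose and none fell in KO 14-day lungs, against 0.212% and 0.0499% of all genes. These were Ptgir, the prostacyclin receptor that restrains platelet activation (log2 0.84, SE 0.23, edgeR FDR = 0.206), and Zfpm1, the GATA1 cofactor FOG1 (log2 0.83, SE 0.20, edgeR FDR = 0.161). In WT lungs 1 rose, the ADP receptor gene P2ry12 (log2 0.97, SE 0.28, edgeR FDR = 0.202), and 1 fell, the thromboxane receptor gene Tbxa2r (log2 −0.87, SE 0.26, edgeR FDR = 0.209), against 0.331% and 0.243% of all genes. With GC offsets neither was called in WT lungs (FDRs of 0.310 and 0.366), nor without the filter on low counts (0.284 and 0.311). In the mean of both genotypes, P2ry12 (log2 0.71, edgeR FDR = 0.137) and the megakaryocyte transcription factor gene Nfe2 (log2 0.66, edgeR FDR = 0.178) rose and none fell, against 0.424% and 0.150% of all genes. DESeq2, which gave adjusted p-values to 32 of the 44 in KO lungs, called Zfpm1 and F5 there, none of 24 in WT lungs, and P2ry12 and Nfe2 in the mean of both genotypes, with no adjusted p for Ptgir in KO lungs or for P2ry12 and Tbxa2r in WT lungs. Most of these calls rested on few animals, since leaving out 1 lung ended the call of Zfpm1 in 3 of 10 cases, of Ptgir in 6, of P2ry12 in WT lungs in 5, of Tbxa2r in 8 and of Nfe2 in 4 of 20. The call of P2ry12 in the mean of both genotypes held in all 20 such cases, but not with a block for the replicate number. None of the 44 passed in KO against WT lungs at either state or in the interaction, by edgeR or, where it gave an adjusted p, by DESeq2. At an unadjusted p under 0.05 in edgeR, 2 of 44 were lower in KO than in WT 14-day lungs, against 4.35% of all genes, and 1 was higher and 6 were lower in KO than in WT control lungs, against 5.34% and 6.26%. At the same p, 5 had a positive interaction, against 4.78%. In 14-day against control lungs 9 were higher and 2 lower in KO mice, against 4.79% and 3.86%, and 4 were higher and 1 lower in WT mice, against 6.00% and 5.76%.

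By list, the median log2 fold changes in KO lungs were 0.14 for 13 tested receptors of 16, 0.12 for 10 granule genes of 11, 0.20 for 13 signalling genes of 15 and 0.05 for 8 transcription factors of 10, and in WT lungs −0.06, 0.12, −0.03 and 0.05, each beside 0.00 for all genes. Many of these genes are expressed by other lung cells as well. Vwf, which endothelial cells also make and which is the ligand of the glycoprotein Ib complex, was at 88.4 to 145 FPKM in lungs with log2 fold changes of 0.14 in KO and 0.12 in WT mice. Itgb3, the partner chain of Itga2b, had log2 fold changes of 0.09 (SE 0.17) and −0.04 (SE 0.16), and Gp1ba, the ligand-binding subunit of the receptor, 0.14 (SE 0.39) and −0.11 (SE 0.34). The collagen receptor gene Gp6, at 1 to 16 counts per lung, had a log2 fold change of 0.84 (SE 0.50) in KO and −0.10 (SE 0.48) in WT lungs. The granule adhesion gene Selp had 0.08 and 0.40, and the CLEC-2 ligand gene Pdpn −0.04 and −0.16.

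**Figure D4:**
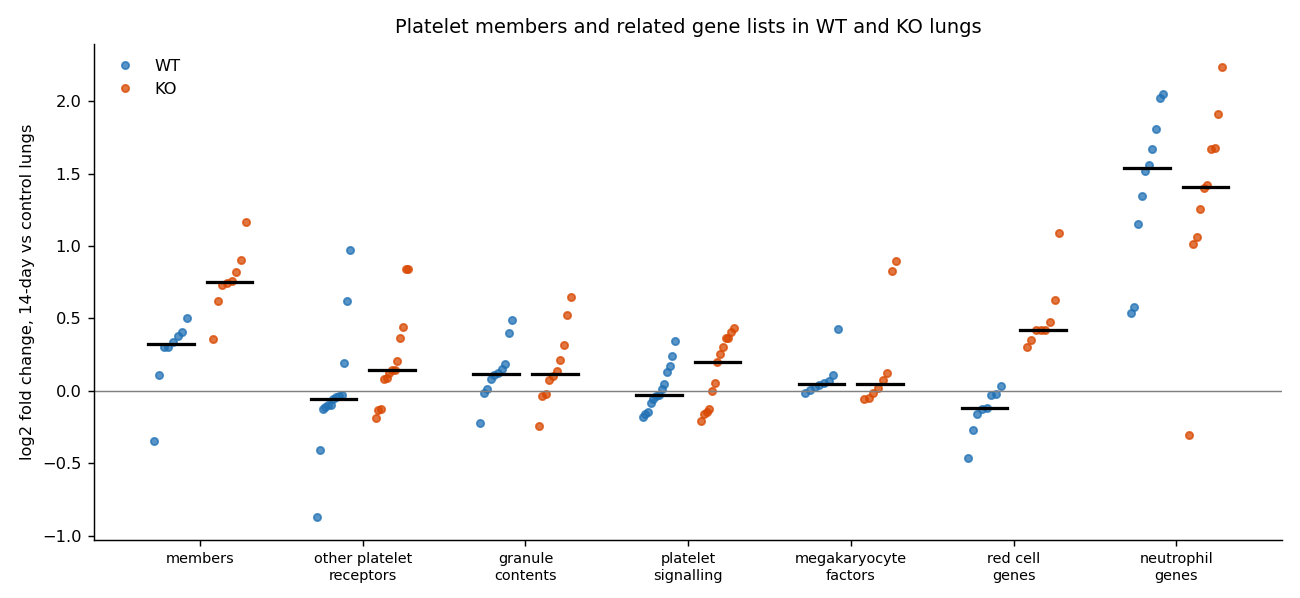
Log2 fold changes of 14-day against control lungs for each tested gene of the 9-gene list (8 genes), the 4 related platelet and megakaryocyte lists, and the red cell and neutrophil lists, in WT (blue) and KO (orange) mice; horizontal lines are list medians. The medians of the 4 related lists lie between −0.06 and 0.20, and the neutrophil medians at 1.54 in WT and 1.41 in KO mice.

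Of 12 listed ligands and receptors that platelets share with other cells, 8 were tested, and Cxcr2, the neutrophil receptor for the Ppbp product, was the 1 that passed. It was at 2.64 to 3.82 FPKM in WT controls, 2.33 to 5.30 FPKM in KO controls, 4.95 to 11.2 FPKM in WT 14-day and 3.19 to 10.96 FPKM in KO 14-day lungs. Cxcr2 rose in both genotypes, with log2 fold changes of 1.34 (SE 0.29, edgeR FDR = 0.101) in WT and 1.02 (SE 0.30, edgeR FDR = 0.248) in KO mice. Leaving out 1 lung ended the call in 9 of 10 cases in KO and in 1 of 10 in WT mice, and in none of 20 for the mean of both genotypes. Gata1, a megakaryocyte and red cell transcription factor, was too low to test, at 1 to 7 counts per lung.

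The 10 genes outside the list whose log2(CPM + 1) was most like the platelet score over the 20 lungs were Phlpp1 (Pearson r = 0.82), F5 (0.81), Gnl1 (0.78), Cd101 (0.77), Nfe2 (0.76), Stx11 (0.75), Atg4c (0.75), Adam8 (0.75), Il1b (0.75) and Mrvi1 (0.74). Of these F5, clotting factor V, which platelet granules store, Nfe2 and Mrvi1, a substrate of cyclic GMP-dependent kinase in platelets, were in the related lists. Il1b, an interleukin of activated myeloid cells, and Adam8, a protease of leukocytes, were not. Without the 2 lungs farthest from the median score, r stayed between 0.63 and 0.81. The ranking was not firm, as the 10 genes shared 6 with the list by Spearman correlation, 4 with that from log2(FPKM + 1) and 1 with that after the group means were removed.

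In the primary tumors 7 of the 9 genes were nearly undetected. Ppbp gave 0 to 3 counts per tumor (0 to 0.76 FPKM), Tubb1 0 to 1, Treml1 0 to 2, Gp1bb 0 to 5, Clec1b 0 to 6, Gp5 0 to 6 and Gp9 0 to 10 counts. Tubb1 and Treml1 were each at 0 in 8 of 12 tumors, and a count of 0 allows up to 3 counts, or 0.460 to 0.675 CPM in these libraries, for counting error alone. None of these 7 genes passed the filter, so they were not tested.

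Pf4 and Itga2b were the exceptions. In tumors of WT hosts Pf4 ran from 23.0 to 51.0 FPKM (median 30.3), and in those of KO hosts from 14.1 to 21.7 FPKM (median 19.2). The 2 host groups did not overlap in FPKM, but they did in CPM, with 7.49 to 15.8 in WT and 5.27 to 8.39 in KO hosts. Of all tested genes, 0.370% (of 13784 matched by symbol) were lower in KO hosts without overlap in FPKM and 0.463% in CPM. On the counts Pf4 was lower in KO hosts by a log2 difference of −0.64 (SE 0.20, edgeR FDR = 0.130), outside the limits of the tumor comparison, an FDR under 0.05 and a 2-fold change. Itga2b ran from 1.97 to 6.59 FPKM in WT and from 1.26 to 9.88 FPKM in KO hosts, from 10 to 33 counts per tumor, with a log2 difference of −0.13 (SE 0.27, edgeR FDR = 0.881). Neither of the 2 tested genes was called, against 1.06% of 13830 genes, in edgeR or DESeq2, and Pf4 was the 1 of 2 with an unadjusted p under 0.05, against 6.57% of all genes lower at that p.

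The 2 chemokine genes stood in different proportions in the tissues. Over the 20 lungs there were 725 counts of Pf4 and 1913 of Ppbp, or 0.379 Pf4 counts per Ppbp count (exact 95% interval 0.347 to 0.413, Clopper-Pearson). Over the 12 tumors there were 589 counts of Pf4 and 21 of Ppbp, or 28.0 per Ppbp count (18.2 to 45.7), where the interval covers counting error only. For Itga2b, with 1751 counts in lungs and 251 in tumors, there were 0.414 Pf4 counts per Itga2b count (0.379 to 0.452) in lungs and 2.35 (2.02 to 2.73) in tumors. In FPKM the ratio of Pf4 to Itga2b was 2.08 to 5.09 (median 3.63) in lungs and 2.18 to 16.6 (median 7.77) in tumors, so that its shift between tissues was smaller in FPKM than in counts and the ranges overlapped. Macrophage genes, as a value beside it, summed to 310.0 to 430.4 CPM in lungs, to 775 to 1426 CPM in tumors of WT hosts and to 1081 to 1491 CPM in those of KO hosts, and none of the 12 listed was at 0 in all tumors. Red cell genes summed to 30.2 to 64.2 CPM in tumors of WT and 42.8 to 108 CPM in those of KO hosts.

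Genes of other cells were compared between host genotypes beside Pf4, which had a negative log2 difference. The T cell genes summed to 13.7 to 54.0 CPM in WT and 37.2 to 64.3 CPM in KO hosts, and 7 of 7 tested were higher at an unadjusted p under 0.05 in edgeR, against 8.95% of all genes, with a median log2 difference of 1.13. Of these Cd3g and Cd3d, chains of the T cell receptor complex, passed the limits in edgeR and in DESeq2, against 1.01% of all genes higher and 0.0506% lower. Of 12 macrophage genes 5 were higher at that p, with a median of 0.27, and none passed the limits in either tool. Of 4 tested red cell genes 2 were higher at that p, with a median of 0.58, and of 6 tested neutrophil genes 2, with a median of 0.40. None of these 2 lists was lower at that p or passed the limits in either tool. Of 9 tested endothelial genes none was higher or lower at that p. Of 33 tested genes in the 4 related platelet lists, 7 were higher and none lower at that p, against 8.95% and 6.57%, and none passed the limits in either tool. The part of any other cell type in the Pf4 of tumors was not tested.

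**Figure D5:**
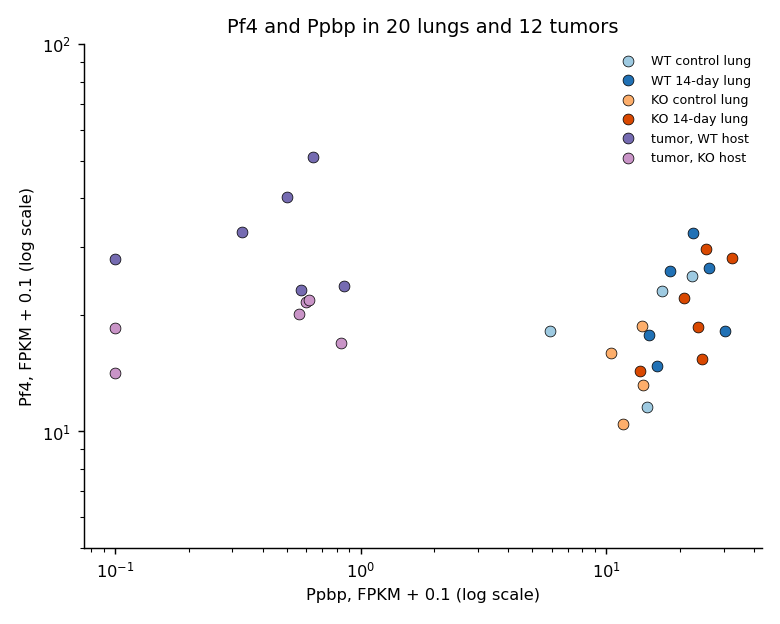
Pf4 against Ppbp in FPKM + 0.1 on log axes for 20 lungs and 12 tumors, with 1 point per sample. Lungs lie at the right with Ppbp at 5.81 to 32.3 FPKM, and tumors at the left with Ppbp at 0 to 0.76 FPKM, while Pf4 spans 10.4 to 32.4 FPKM in lungs and 14.1 to 51.0 FPKM in tumors.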

How the data were processed

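The authors aligned stranded paired-end mRNA reads to GRCm38 (mm10) with STAR and estimated expected counts per gene with RSEM. These were deposited unnormalized and rounded to integers. FPKM, likewise from RSEM, were deposited by the authors and are scaled for transcript length and library size. Because RSEM's transcript lengths vary with the isoforms it assigns, FPKM and CPM of one gene can rank samples differently, and samples were compared on counts.

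Total counts were 4446323 to 8318711 per sample, and intervals and limits for zero counts cover counting error only. All count and FPKM columns were mapped to samples by their names. edgeR 4.0.16 (R 4.3.3) with TMM normalization and filterByExpr was fitted to all genes, once over 20 lungs (16029 genes) and once over 12 tumors (13830 genes), with 1 mean per group and the quasi-likelihood F test, two-sided, with Benjamini-Hochberg FDR. Limits were FDR 0.25 and 1.5-fold in lungs, FDR 0.25 for the interaction, and FDR 0.05 and 2-fold in tumors. The SE is the log2 fold change divided by the square root of F. CPM values are TMM-normalized within each tissue. Scores used a pseudocount of 1. Promoters came from RefSeq (9 of 9 genes matched by symbol), positions from GENCODE M21 (29244 of 29511 identifiers matched). DESeq2 1.42.0, Python 3.11.15, numpy 2.4.6, pandas 2.3.3, scipy 1.17.1 and matplotlib 3.10.9 were also used. The fits were tested on simulated data.

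The 9 genes, the related lists and the cell type lists were chosen with earlier results of these data known. All 9 genes are named, with related genes past the limits or that are direct partners of the 9, and the 10 genes outside the list with the highest Pearson r with the score among lung genes tested. Alternatives were DESeq2, RLE size factors, no filter, fits of only the compared groups, a block for the replicate number, other limits, offsets for GC content (loess span 0.5), another pseudocount and each sample left out. The counts at an FDR of 0.25 without a fold limit and at an unadjusted p under 0.05, the latter also under each edgeR alternative, were added after seeing the data. Samples of one group are separate animals. In all 72 pairs of replicates chi-squared exceeded its degrees of freedom (ratios of 2.43 to 15.0), so none agreed within sampling noise.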

Additional observations from a re-analysis of the deposited data

Results flagged for a closer look

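Of 54 sets of values (9 genes in 6 groups, FPKM), 5 held a sample far from the others of its group by Dixon's criterion, and chance alone flags about 1 in 20 sets. Gp9 was at 1.29 FPKM in the fifth WT 14-day lung, from 5 counts, below the other 5 lungs at 3.79 FPKM or more. Clec1b was at 17.9 FPKM in the sixth WT 14-day lung, above the next at 13.4 FPKM. In the tumors, where these genes had few counts, Gp9 reached 2.60 FPKM (10 counts) and Gp5 0.62 FPKM (6 counts) in 1 WT host tumor each, and Treml1 0.41 FPKM (2 counts) in 1 KO host tumor.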

How the results depend on the processing

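The 8 or fewer tested genes gave small counts, so single calls moved them. For DESeq2, the other fits, left-out samples and changed FDR limits, the share of all genes called is not given here. Changes in those counts of called genes can therefore not be told from changes over all genes. In KO lungs (1 called), DESeq2 called 3 genes, the fit of only the compared groups 2, GC offsets 0, an FDR of 0.05 0, and an unadjusted p under 0.05 7. In the mean of both genotypes (1 called), an FDR of 0.05 gave 0, dropping the fold limit 4 and an unadjusted p under 0.05 7. Unadjusted counts were 1 in WT lungs, 2 in KO against WT controls, 1 in the interaction and 1 in tumors, and limits of FDR 0.25 and 1.5-fold called 1 gene, Pf4, in tumors instead of 0. Leaving out each sample gave 0 to 3 called genes in KO lungs, 0 to 3 in the mean of both genotypes and 0 in the 5 other comparisons. The replicate numbers name different animals (correlations of deviations −0.28 to 0.23 over 24 same-numbered pairs), and with them as a replicate block 3 genes were called in KO lungs (Tubb1, Ppbp and Itga2b), also 3 with GC offsets and the replicate block together, which gave 2 in the mean of both genotypes. No other count of called genes among the 8 changed with the block. At an unadjusted p under 0.05 the block gave 4 genes in KO against WT controls instead of 2 and 2 in the interaction instead of 1. GC offsets gave 0 at that p in WT lungs, in the controls and in the interaction. Among related genes the block ended the call of P2ry12 in WT lungs (log2 0.70, FDR 0.309) and in the mean of both genotypes (log2 0.45, FDR 0.330). In KO lungs the fit of only the compared groups ended the calls of Cxcr2 (FDR 0.331) and Ptgir (FDR 0.251), GC offsets that of Cxcr2 (FDR 0.259) and leaving out the filter that of Ptgir (FDR 0.292). DESeq2 gave no adjusted p to the 8 genes in KO against WT 14-day lungs, so that alternative has no value there. GC offsets turned Clec1b from 0.03 to −0.073 in KO against WT controls, and from −0.05 to 0.056 in the interaction (−0.068 and 0.053 with the replicate block). Leaving out 1 sample also turned signs of small log2 values, which ranged from −0.066 to 0.27 for Tubb1 in WT lungs, from −0.54 to 0.017 for Ppbp and −0.014 to 0.11 for Clec1b in KO against WT controls, and from −0.18 to 0.080 for Clec1b in the interaction. In KO against WT 14-day lungs they ranged from −0.15 to 0.053 for Pf4, −0.15 to 0.092 for Itga2b, −0.075 to 0.19 for Tubb1 and −0.16 to 0.11 for Clec1b. The cause of these changes was not tested. Of the log2 fold changes of the member genes under the alternatives, 894 kept direction and side of the limits, 29 turned sign, 19 came inside the limits and 10 fell outside, leaving out those with no adjusted p in DESeq2. The score difference in tumors went from −0.08 to −0.34 with only Pf4 and Itga2b. At this depth Treml1 in lungs and 7 genes in tumors could not be tested.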
